A study of Mus musculus with 18 samples.

Results

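Syndecans and glypicans are the main families of cell surface proteoglycans that carry heparan sulfate. The 9 genes described here are the syndecans Sdc1, Sdc2, Sdc3 and Sdc4 and the glypicans Gpc1, Gpc2, Gpc3, Gpc4 and Gpc6, chosen by gene symbol out of 38243 genes counted in each library. All 9 were found, and 8 passed the filter on low values described below. RNA came from mandibular bone, Meckel's cartilage (MC) and mandibular condylar cartilage of mouse embryos at E16.5, each isolated by laser capture microdissection. Of the 6 embryos, 3 were Fgfr2+/S252W, heterozygous for the S252W substitution of Apert syndrome, and 3 were unaffected Fgfr2+/+ littermates. All 6 were female, of strain C57BL/6 by the labels (C57BL6/J in the study's methods), with no treatment or pooling named. The 18 libraries fall into 6 groups of 3, 1 for each tissue and genotype. Libraries of 1 genotype with the same replicate number share a code in the labels, which name no embryo.

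Heparan sulfate is a long sulfated sugar chain built on a core protein in the Golgi. A fibroblast growth factor (FGF), its receptor and a heparan sulfate chain form a complex at the cell surface, which is why these proteoglycans are called FGF co-receptors. Syndecans cross the membrane and end in a short cytoplasmic tail, whereas glypicans are held in the membrane by a lipid (GPI) anchor. In skeletal tissue both families are known to act on FGF, Wnt, Hedgehog and BMP signals.

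Libraries held between 8218548 and 15585778 counted read pairs (fragments). Mitochondrial genes took 19.4% to 38.1% of the counts, and Gm42418 took 24.1% to 39.4% in MC, 10.9% to 20.2% in condylar cartilage and 5.58% to 9.33% in bone. The tissue labels were compared with marker genes, and the summed level of 8 chondrocyte markers (Sox9, Col2a1, Acan and others) was 31584 to 38917 CPM (counts scaled to library size) in condylar cartilage and 91.5 to 388 in bone. In MC it was 365, 3022 and 3136 CPM in the Fgfr2+/+ libraries and 8805, 1978 and 2029 CPM in the Fgfr2+/S252W libraries, so that the MC libraries carried far fewer chondrocyte transcripts than the condylar libraries. Ihh and Bglap were at 0 in every MC library. Fgfr2+/+ MC replicate 1, the library with 365 CPM, was as close to the bone libraries (mean correlation 0.885) as to the other MC libraries (0.882), and its summed osteoblast marker level of 4031 CPM was the highest in MC. Results on Fgfr2+/+ MC are therefore also given without it. Markers of epithelium summed to at most 5.93 CPM in any library. Levels below are FPKM, that is fragments scaled to exon length and to library size after TMM normalization, and in such bulk samples fewer cells of a type and less RNA per cell cannot be told apart.

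Differences were fitted with limma voom for the 11469 genes that exceeded 1 FPKM in 50% or more of the 18 libraries, and are given on the log2 scale with their standard error (SE). The threshold for passing was a Benjamini-Hochberg adjusted p-value of 0.05 within the comparison. This filter used FPKM scaled to total counts, before TMM factors, by which Gpc2 was above 1 in 8 libraries, and Gpc2 was not tested in this fit. Between tissues, 3 of the 8 tested genes passed for bone against MC in Fgfr2+/+ embryos, where 34.0% of all genes tested passed, and 5 passed in Fgfr2+/S252W embryos, where 38.3% did. For bone against condylar cartilage 6 passed in each genotype, against 37.4% of all genes in Fgfr2+/+ and 31.9% in Fgfr2+/S252W embryos. For condylar cartilage against MC all 8 tested genes passed in each genotype, against 45.0% and 42.6% of all genes, with 5 higher and 3 lower in condylar cartilage. Between genotypes none passed in any tissue. Where libraries of a pair of tissues are said not to overlap below, the share of all genes tested that did not overlap either was 40.4% for bone against MC, 51.8% for bone against condylar cartilage and 47.6% for condylar cartilage against MC in Fgfr2+/+ embryos, and 54.9%, 49.5% and 50.8% in Fgfr2+/S252W embryos.

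**Figure D1:**
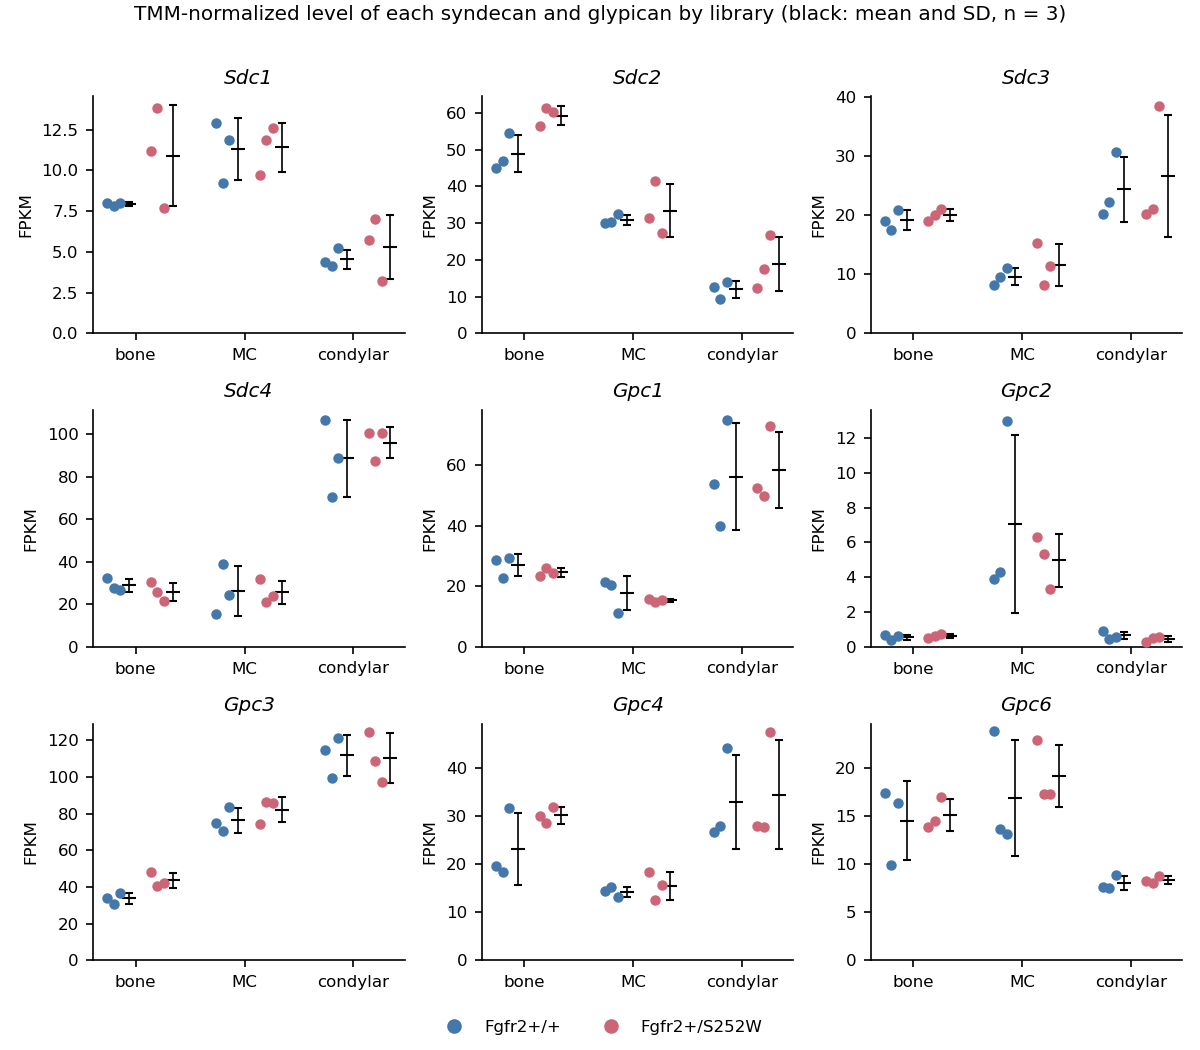
Level of each of the 9 genes in FPKM (vertical axis, starting at 0) in every library of bone, MC and condylar cartilage, with Fgfr2+/+ in blue, Fgfr2+/S252W in red and the mean and SD of 3 libraries in black. All 8 tested genes passed between condylar cartilage and MC, and none passed between genotypes, while bone and MC overlapped for some genes. Sdc4 lay between 70.6 and 107 FPKM in condylar cartilage and at most at 38.84 FPKM elsewhere.

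The syndecans had different orders across the tissues. Sdc2, the syndecan typical of mesenchymal cells and osteoblasts (15:32920723-33034730), was highest in bone and lowest in condylar cartilage. In bone its level was 45.0, 47.0 and 54.6 FPKM in the Fgfr2+/+ libraries and 56.3, 61.2 and 60.3 FPKM in the Fgfr2+/S252W libraries. The MC libraries had 30.0, 30.3 and 32.4 FPKM in Fgfr2+/+ and 31.4, 41.4 and 27.4 FPKM in Fgfr2+/S252W embryos, and the condylar libraries had 12.7, 9.38 and 13.9 FPKM and 12.4, 17.6 and 26.9 FPKM. Within each genotype no library of one tissue overlapped with another tissue. Sdc2 was higher in bone than in condylar cartilage by 2.04 on the log2 scale in Fgfr2+/+ embryos (SE 0.21, adjusted p = 2.68e-07) and by 1.75 in Fgfr2+/S252W embryos (SE 0.20, adjusted p = 1.04e-06). Its excess in bone over MC was 0.66 (SE 0.20, adjusted p = 0.0172) and 0.86 (SE 0.20, adjusted p = 0.00250). The first of these did not pass without Fgfr2+/+ bone replicate 3 (0.58, adjusted p = 0.0595).

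Sdc1, best known from epithelia and plasma cells (12:8771323-8793715), had the lowest levels of the 4 syndecans in bone and condylar cartilage. In Fgfr2+/+ embryos its level was 7.98, 7.82 and 8.01 FPKM in bone, 12.9, 9.23 and 11.9 FPKM in MC, and 4.36, 4.11 and 5.21 FPKM in condylar cartilage. Fgfr2+/S252W libraries had 11.2, 13.9 and 7.70 FPKM in bone, 9.73, 11.9 and 12.6 FPKM in MC, and 5.76, 7.05 and 3.19 FPKM in condylar cartilage. Condylar cartilage was the lowest tissue in each genotype, without overlap. It was below MC by 1.34 on the log2 scale in Fgfr2+/+ embryos (log2 difference -1.34, SE 0.27, adjusted p = 0.000488) and by 1.09 in Fgfr2+/S252W embryos (-1.09, SE 0.28, adjusted p = 0.00326). Bone was above condylar cartilage by 0.81 (SE 0.26, adjusted p = 0.0182) and 1.01 (SE 0.25, adjusted p = 0.00325). The first of these values did not pass without Fgfr2+/+ condylar replicate 1 (0.78, adjusted p = 0.0633) or replicate 2 (0.74, adjusted p = 0.0714). Bone against MC did not pass in either genotype, with log2 differences of -0.53 (95% confidence interval -1.04 to -0.013, adjusted p = 0.105) and -0.08 (-0.58 to 0.43, adjusted p = 0.828).

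Sdc4, a syndecan of focal adhesions (2:164424247-164443186), was the syndecan with the widest range, 3.57-fold between the mean of the 6 condylar libraries (92.4 FPKM) and that of the 6 MC libraries (25.9 FPKM). Its level was 107, 70.6 and 88.8 FPKM in Fgfr2+/+ and 100, 87.6 and 100 FPKM in Fgfr2+/S252W condylar cartilage. Bone had 32.5, 27.6 and 26.8 FPKM and 30.4, 25.7 and 21.8 FPKM. MC had 15.5, 38.84 and 24.3 FPKM and 31.7, 21.1 and 24.0 FPKM, the 15.5 FPKM being that of Fgfr2+/+ replicate 1. The condylar libraries were all above those of the other tissues, while bone and MC overlapped. Condylar cartilage exceeded MC by 1.91 on the log2 scale in Fgfr2+/+ (SE 0.24, adjusted p = 2.76e-06) and by 1.90 in Fgfr2+/S252W embryos (SE 0.25, adjusted p = 3.97e-06), and without Fgfr2+/+ MC replicate 1 the first value was 1.55 (adjusted p = 1.65e-05). Bone was below condylar cartilage, with log2 differences of -1.60 (SE 0.22, adjusted p = 7.95e-06) and -1.90 (SE 0.22, adjusted p = 8.93e-07).

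Sdc3, the syndecan of neural tissue and developing cartilage (4:130792537-130826319), was lowest in MC. In Fgfr2+/+ embryos it had 8.22, 9.60 and 11.03 FPKM in MC, 19.1, 17.5 and 20.9 FPKM in bone, and 20.3, 22.2 and 30.7 FPKM in condylar cartilage. The Fgfr2+/S252W libraries had 15.3, 8.24 and 11.4 FPKM in MC, 19.1, 19.97 and 21.1 FPKM in bone, and 20.3, 21.0 and 38.6 FPKM in condylar cartilage. No MC library reached the level of a bone or condylar library, and bone and condylar cartilage overlapped. Bone exceeded MC by 1.03 (SE 0.25, adjusted p = 0.00373) in Fgfr2+/+ and 0.79 (SE 0.25, adjusted p = 0.0162) in Fgfr2+/S252W embryos, the second value not passing without Fgfr2+/S252W MC replicate 2 (0.59, adjusted p = 0.0865). Condylar cartilage exceeded MC by 1.35 (SE 0.25, adjusted p = 0.000187) and 1.11 (SE 0.25, adjusted p = 0.00126). The difference between bone and condylar cartilage was -0.32 in each genotype, with intervals of -0.77 to 0.13 and -0.77 to 0.12. Of the exon bases of Sdc3, 463 of 5084 are shared with the antisense genes Gm12970 and Gm26716, and fragments on them were not counted because strand was not used.

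Among the glypicans, Gpc3 had the highest mean level in each of the 3 tissues. Its loss causes the X-linked Simpson-Golabi-Behmel overgrowth syndrome (X:52272426-52613950). It had 34.1, 30.8 and 36.8 FPKM in Fgfr2+/+ and 48.3, 40.7 and 42.1 FPKM in Fgfr2+/S252W bone. In MC it had 74.7, 70.6 and 83.8 FPKM and 74.2, 86.5 and 85.9 FPKM, and in condylar cartilage 115, 99.5 and 121 FPKM and 124, 109 and 97.2 FPKM. The tissues did not overlap, in the order bone, MC, condylar cartilage. Bone was below MC by 1.17 (log2 difference -1.17, SE 0.14, adjusted p = 7.85e-06) in Fgfr2+/+ and by 0.91 (-0.91, SE 0.14, adjusted p = 5.15e-05) in Fgfr2+/S252W embryos. Bone was below condylar cartilage in both, with log2 differences of -1.72 (SE 0.14, adjusted p = 1.16e-08) and -1.34 (SE 0.14, adjusted p = 1.86e-07). Condylar cartilage exceeded MC by 0.55 (SE 0.14, adjusted p = 0.00304) and 0.43 (SE 0.14, adjusted p = 0.0178). The last value did not pass without Fgfr2+/S252W MC replicate 1 (0.38, adjusted p = 0.0632) or condylar replicate 1 (0.33, adjusted p = 0.0990), nor in a fit of the libraries of these tissues alone (0.40, adjusted p = 0.0537).

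Gpc4 lies next to Gpc3 on the X chromosome (X:52053021-52165252), on the same strand with 107173 bases between them, and is known for binding Wnt and FGF ligands. Its order was different from that of Gpc3, with the lowest level in MC. In MC it had 14.3, 15.3 and 13.1 FPKM in Fgfr2+/+ and 18.3, 12.6 and 15.6 FPKM in Fgfr2+/S252W embryos. Bone had 19.5, 18.3 and 31.7 FPKM and 29.9, 28.5 and 31.9 FPKM, and condylar cartilage had 26.8, 27.9 and 44.1 FPKM and 27.98, 27.8 and 47.5 FPKM. Every MC library lay below the bone and condylar libraries of its genotype. Condylar cartilage exceeded MC by 1.16 (SE 0.27, adjusted p = 0.00131) and 1.07 (SE 0.27, adjusted p = 0.00323). Bone exceeded MC by 0.94 in Fgfr2+/S252W embryos (SE 0.26, adjusted p = 0.00820) and had a log2 difference of 0.67 in Fgfr2+/+ embryos that did not pass (SE 0.27, adjusted p = 0.0592). The latter passed in edgeR (adjusted p = 0.0380), in DESeq2 (adjusted p = 0.0382), with the libraries of bone and MC alone (0.65, adjusted p = 0.0340), with the shared code as a replicate block (0.67, adjusted p = 0.0283), and without Fgfr2+/+ bone replicate 2 (0.82, adjusted p = 0.0414), Fgfr2+/+ condylar replicate 3 (0.66, adjusted p = 0.0417) or Fgfr2+/S252W condylar replicate 3 (0.68, adjusted p = 0.0291). These were 3 of the 18 fits with 1 library left out, and the difference was 0.41 (adjusted p = 0.261) without Fgfr2+/+ bone replicate 3. Bone against condylar cartilage did not pass, with intervals of -0.97 to -0.021 (adjusted p = 0.0952) and -0.59 to 0.34 (adjusted p = 0.721), although the first passed without Fgfr2+/+ bone replicate 3 (-0.75, adjusted p = 0.0184) and without Fgfr2+/S252W condylar replicate 3 (-0.52, adjusted p = 0.0432).

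Gpc1, a glypican of the nervous system and skeleton (1:92831645-92860198), had 53.7, 40.1 and 75.1 FPKM in Fgfr2+/+ and 52.6, 49.8 and 73.0 FPKM in Fgfr2+/S252W condylar cartilage. Bone had 28.7, 22.9 and 29.5 FPKM and 23.3, 26.2 and 24.4 FPKM, and MC had 21.5, 20.6 and 11.3 FPKM and 15.8, 14.8 and 15.4 FPKM. The tissues did not overlap within a genotype, in the order MC, bone, condylar cartilage. Condylar cartilage exceeded MC by 1.64 (SE 0.24, adjusted p = 1.52e-05) and 1.89 (SE 0.25, adjusted p = 4.81e-06), and the bone against condylar differences were -1.01 (SE 0.21, adjusted p = 0.000769) and -1.22 (SE 0.21, adjusted p = 0.000137). For bone against MC, the log2 difference was 0.62 in Fgfr2+/+ embryos (adjusted p = 0.0541) and 0.68 in Fgfr2+/S252W embryos (adjusted p = 0.0383). Neither call was firm. Without Fgfr2+/+ MC replicate 1 the first passed (0.84, adjusted p = 0.0218), as it did when Fgfr2+/+ MC replicate 2, bone replicate 2, condylar replicate 2 or 3, or Fgfr2+/S252W condylar replicate 3 was left out, while it was 0.35 (adjusted p = 0.262) without Fgfr2+/+ MC replicate 3. The second did not pass when any of the 6 Fgfr2+/S252W bone and MC libraries was left out (0.63 to 0.72, adjusted p = 0.0578 to 0.0960).

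Gpc6, whose loss causes a form of short-limbed dwarfism, omodysplasia (14:116925297-117979529), was lowest in condylar cartilage. There it had 7.69, 7.57 and 8.85 FPKM in Fgfr2+/+ and 8.25, 8.09 and 8.84 FPKM in Fgfr2+/S252W embryos. Bone had 17.4, 9.91 and 16.4 FPKM and 13.9, 14.6 and 17.1 FPKM, and MC had 23.9, 13.7 and 13.1 FPKM and 23.0, 17.4 and 17.4 FPKM. No condylar library reached the level of a bone or MC library. Condylar cartilage was below MC by 1.06 (log2 difference -1.06, SE 0.23, adjusted p = 0.000938) and by 1.20 (-1.20, SE 0.23, adjusted p = 0.000335). Bone exceeded condylar cartilage by 0.83 (SE 0.22, adjusted p = 0.00594) and 0.85 (SE 0.22, adjusted p = 0.00506). For bone against MC the log2 differences were -0.24 (-0.70 to 0.23, adjusted p = 0.435) and -0.35 (-0.80 to 0.11, adjusted p = 0.220). Without Fgfr2+/+ MC replicate 1, which had 23.9 FPKM, the first of these was 0.10 (adjusted p = 0.754).

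Gpc2, a glypican of developing neurons (5:138273655-138280005), was measured mainly in MC. It had 3.92, 4.29 and 13.0 FPKM in Fgfr2+/+ and 6.30, 5.31 and 3.32 FPKM in Fgfr2+/S252W MC, from 49 to 179 fragments. Bone had between 0.397 and 0.724 FPKM and condylar cartilage between 0.285 and 0.901 FPKM, from 11 to 36 fragments. All MC libraries were above all others, and the mean over MC was 10.8-fold that over condylar cartilage. Since Gpc2 can pass a filter on low values only through the MC libraries, where it is high, no test of it is given. The summed level of 6 neuron markers was 7.155 to 18.2 CPM in MC, 1.28 to 6.09 CPM in bone and 5.39 to 61.0 CPM in condylar cartilage, most of it from Map2 (6.74 and 11.01 CPM in MC of Fgfr2+/+ and Fgfr2+/S252W embryos, 2.64 and 1.77 CPM in bone), while Tubb3 was lower in MC (0.713 and 0 CPM) than in bone (1.70 and 0.981 CPM). Their part in the Gpc2 values was not tested. Gpc5, the remaining glypican of the mouse and not among the 9 genes, had at most 12 fragments in any library.

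**Figure D2:**
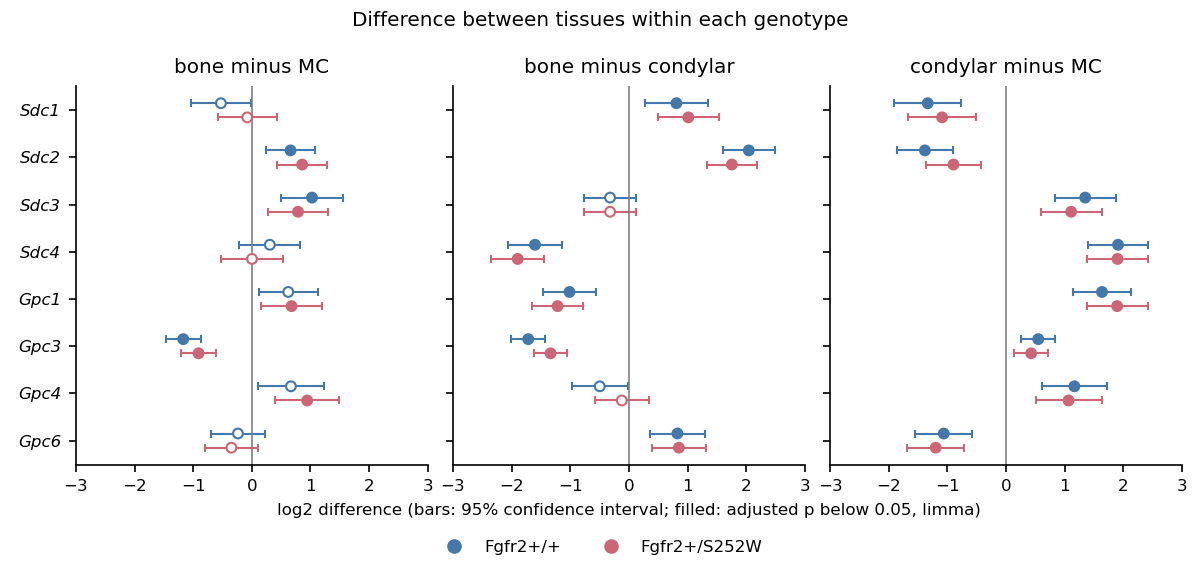
Log2 difference between tissues (horizontal axis, with 95% confidence intervals) for the 8 tested genes, in Fgfr2+/+ (blue) and Fgfr2+/S252W embryos (red). Filled points passed at an adjusted p below 0.05, and all 8 genes passed for condylar cartilage against MC in each genotype.

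Without Fgfr2+/+ MC replicate 1, 4 of the 8 genes passed for bone against MC in Fgfr2+/+ embryos (38.7% of all genes) and all 8 for condylar cartilage against MC (44.3%). For bone against MC the log2 differences were then 0.65 for Sdc2 (adjusted p = 0.0328), 0.91 for Sdc3 (adjusted p = 0.0174), 0.84 for Gpc1 (adjusted p = 0.0218) and -1.17 for Gpc3 (adjusted p = 1.16e-05). Sdc1 (-0.39, adjusted p = 0.301), Sdc4 (-0.073, adjusted p = 0.831) and Gpc4 (0.69, adjusted p = 0.0921) did not pass. Condylar cartilage against MC then ran from -1.37 for Sdc2 to 1.87 for Gpc1.

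In condylar cartilage, replicate 3 of each genotype had the highest Sdc2, Sdc3, Gpc1, Gpc4 and Gpc6 level of its group. The same libraries had the highest summed level of the osteoblast markers in their groups, 12166 against 5983 and 4980 CPM in Fgfr2+/+ and 19007 against 5660 and 5761 CPM in Fgfr2+/S252W embryos. They also had the highest sums of chondrocyte markers (38917 and 37944 CPM, against 31584 to 36491 in the other 4 condylar libraries) and of hypertrophic chondrocyte markers (5828 and 4747 CPM, against 2421 to 3746), and the highest share of Gm42418 (20.1% and 20.2%, against 10.9% to 14.3%). The part of these measures in the condylar values was not tested.

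RefSeq promoter sequence on GRCm38.p6 was at hand for 6 of the 9 genes (Sdc1, Sdc3, Sdc4, Gpc2, Gpc3 and Gpc4). The 250 bases upstream of the start are printed for Sdc3, Sdc4 and Gpc3, which were all higher in condylar cartilage than in MC and whose windows lie outside the gene as the authors annotated it. Capitals mark the GC box GGGCGG on either strand, the core of the site of Sp factors. Each sequence is written 5' to 3' in the direction of the gene. Sdc3 is at chr4:130792287-130792536 (plus strand), Sdc4 at chr2:164443189-164443438 (minus strand) and Gpc3 at chrX:52613975-52614224 (minus strand).
Sdc3: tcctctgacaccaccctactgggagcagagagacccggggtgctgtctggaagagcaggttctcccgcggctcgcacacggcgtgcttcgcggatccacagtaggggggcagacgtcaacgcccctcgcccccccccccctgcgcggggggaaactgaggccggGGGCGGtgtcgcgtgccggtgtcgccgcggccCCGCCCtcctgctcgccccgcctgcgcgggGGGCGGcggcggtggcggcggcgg
Sdc4: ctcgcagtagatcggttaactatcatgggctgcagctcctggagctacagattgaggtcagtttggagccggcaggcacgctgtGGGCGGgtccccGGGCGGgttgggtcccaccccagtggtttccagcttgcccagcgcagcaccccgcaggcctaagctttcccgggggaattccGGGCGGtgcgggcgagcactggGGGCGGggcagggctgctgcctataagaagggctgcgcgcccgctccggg
Gpc3: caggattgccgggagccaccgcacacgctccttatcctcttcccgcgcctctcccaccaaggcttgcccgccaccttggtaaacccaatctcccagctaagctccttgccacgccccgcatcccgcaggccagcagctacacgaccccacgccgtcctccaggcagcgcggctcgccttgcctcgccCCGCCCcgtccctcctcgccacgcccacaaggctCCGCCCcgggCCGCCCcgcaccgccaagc
The GC box was found 3 times in Sdc3, 4 times in Sdc4 and 3 times in Gpc3, and all 6 windows held at least 1 match, although those of Sdc1, Gpc2 and Gpc4 lie in part or wholly (73, 68 and 250 bases) inside the gene as annotated by the authors, against 32.7% of 32851 RefSeq promoter windows of the same length. GC content was 76.4%, 68.0% and 71.6% in the 3 printed windows, and the median over all windows was 52.4%. None of the 6 held TATAAA (12.4% of all windows) or ACAAAG, a core letter run of SOX sites (16.5%). The letters TGTGGT, a core of RUNX sites, were found in Gpc2 only (14.05% of all windows). All motifs were searched on both strands, and a match describes the letters of the window and not a bound site.

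Because the genes moved in different directions, the makeup of the surface proteoglycan transcripts differed between tissues. Summed over the 9 genes, the level was 217 ± 19.96 FPKM in bone, 215 ± 7.02 FPKM in MC and 349 ± 41.8 FPKM in condylar cartilage (mean ± SD of 6 libraries). Syndecans held 48.8% to 54.9% of the sum in bone (median 50.6%), 32.5% to 41.4% in MC (median 37.4%) and 35.7% to 42.7% in condylar cartilage (median 40.0%). No bone library overlapped with the cartilages in this share, and the cartilages overlapped with each other. In bone Sdc2 held the most, with 21.96% to 26.5%, followed by Gpc3 with 16.3% to 20.7%. Gpc3 led in MC with 32.9% to 40.3%. In condylar cartilage Gpc3 (24.5% to 35.3%) and Sdc4 (22.9% to 30.7%) held the largest shares, and Sdc2 held 3.33% to 6.79%.

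**Figure D3:**
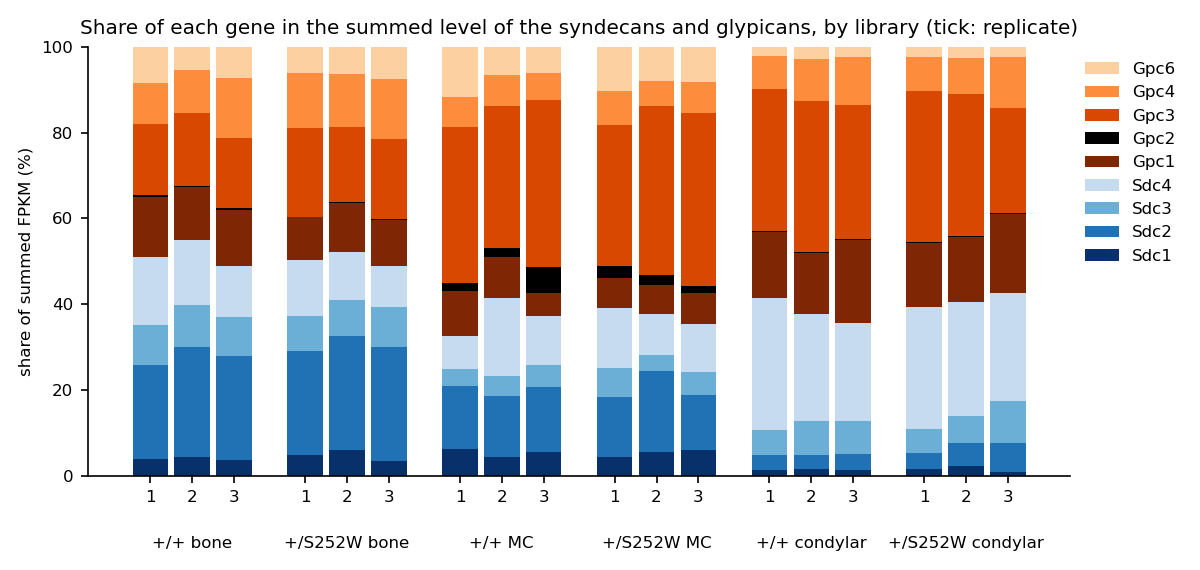
Share of each gene in the summed FPKM of the 9 genes (vertical axis, percent) for each of the 18 libraries, with syndecans in blue and glypicans in orange, brown and black. Sdc2 takes 21.96% to 26.5% in bone and 3.33% to 6.79% in condylar cartilage, where Sdc4 takes 22.9% to 30.7%.

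Sdc3 and Gpc4 had the most similar pattern among the pairs of tested genes, with a root mean square difference of 0.20 between their centred log2 CPM over 18 libraries. Each was also the closest of all 11469 genes to the other. The next closest pairs were Sdc1 with Gpc6 (0.39) and Gpc1 with Gpc4 (0.45), and the most distant were Sdc2 and Sdc4 (1.64). By the same measure the closest other gene was Cmip for Sdc1 (0.26), Pcdh18 for Sdc2 (0.23), Dop1b for Sdc4 (0.25), Gpd2 for Gpc3 (0.23), Itga11 for Gpc6 (0.23), and Enah and H13 for Gpc1 (both 0.25). The second closest were Pde7b, Fmnl3, Arf2, Pitpnc1 and Zfp189, and for Sdc3 and Gpc4 they were Serinc3 and Glg1. These values are descriptions over libraries that share tissues.

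The comparison of Fgfr2+/S252W with Fgfr2+/+ embryos asks whether the mutation goes with other co-receptor levels. None of the 8 tested genes passed in bone, where 0.0872% of all genes did, and none in MC or condylar cartilage, where 0% did (limma). Before adjustment, p was below 0.05 for 0 of the 8 in MC, for 1 in bone (Gpc3) and for 1 in condylar cartilage (Sdc2), against 15.4%, 8.13% and 3.06% of all genes. edgeR's quasi-likelihood test and DESeq2 called 0 of the 8 in each tissue, and over all genes called 0.0349% and 0.157% in bone, 0.785% and 3.69% in MC, and 0% and 0.0262% in condylar cartilage. Libraries of the genotypes did not overlap for 2 of the 9 genes in bone (Sdc2 and Gpc3), against 20.4% of all genes tested, and for none in MC and condylar cartilage, against 13.4% and 9.77%. Gpc3 in bone had 34.1, 30.8 and 36.8 FPKM in Fgfr2+/+ and 48.3, 40.7 and 42.1 FPKM in Fgfr2+/S252W libraries, which did not overlap, and a log2 difference of 0.36 (SE 0.14, 95% interval 0.072 to 0.66, adjusted p = 0.501). Sdc2 in condylar cartilage had a log2 difference of 0.57 (SE 0.23, interval 0.095 to 1.04, adjusted p = 0.998), and its libraries overlapped. It was 0.31 without Fgfr2+/S252W condylar replicate 3 and 0.86 without replicate 1. Sdc2 in bone had 45.0 to 54.6 FPKM in Fgfr2+/+ and 56.3 to 61.2 FPKM in Fgfr2+/S252W embryos, with a log2 difference of 0.28 (SE 0.19, adjusted p = 0.763). The other log2 differences in bone ran from -0.16 for Sdc4 to 0.42 for Sdc1 and 0.41 for Gpc4.

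Over the 8 genes the median difference in bone was 0.18, against -0.00074 over all genes, with 6 of 8 above 0 against 49.9% of all genes. It was 0.12 in MC (0.026 over all genes), with 6 of 8 above 0 against 52.1% of all genes. In condylar cartilage it was 0.068 (-0.010 over all genes), with 7 of 8 above 0 against 48.7%. The widest of the 24 intervals was -0.50 to 0.76, for Gpc4 in MC. Over all genes the median SD of a gene's log2 level was 0.52 in Fgfr2+/+ and 0.35 in Fgfr2+/S252W MC against 0.24 and 0.16 in bone. The fit shares 1 spread among tissues and so understates that of MC. With the libraries of each tissue fitted alone, none of the 8 passed either, and none passed in MC without Fgfr2+/+ MC replicate 1, where the log2 differences ran from -0.24 to 0.54. In bone, the summed levels of 4 marker lists did not overlap between the genotypes, although none of their tested genes passed in this fit. The study's own fit called more genes in this comparison, with Acp5, Calcr, Csf1r and Ctsk higher in Fgfr2+/S252W bone. In its stained sections Fgfr2+/S252W embryos also had more osteoclasts per bone area. Osteoclast markers summed to 896 to 1159 CPM in Fgfr2+/+ and 1660 to 2302 CPM in Fgfr2+/S252W libraries, and all 6 had a higher mean in Fgfr2+/S252W bone. Erythroid markers summed to 1257 to 1506 and 315 to 597 CPM, and all 6 had a lower mean. Chondrocyte markers summed to 91.5 to 239 and 288 to 388 CPM, mostly from Col2a1 (means of 106 and 278 CPM), while Acan, Matn1 and Matn3 had lower means. The macrophage sums of 74.4 to 81.0 and 102 to 137 CPM came mostly from Csf1r (59.9 and 116 CPM), and the other 5 genes had lower means. In MC the lists without overlap were osteoclast (87.9 to 246 CPM in Fgfr2+/+ and 62.5 to 69.1 CPM in Fgfr2+/S252W libraries), macrophage (24.7 to 55.1 and 68.3 to 109 CPM) and Schwann cell (2.69 to 7.31 and 11.03 to 20.3 CPM). Their part in these values was not tested.

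**Figure D4:**
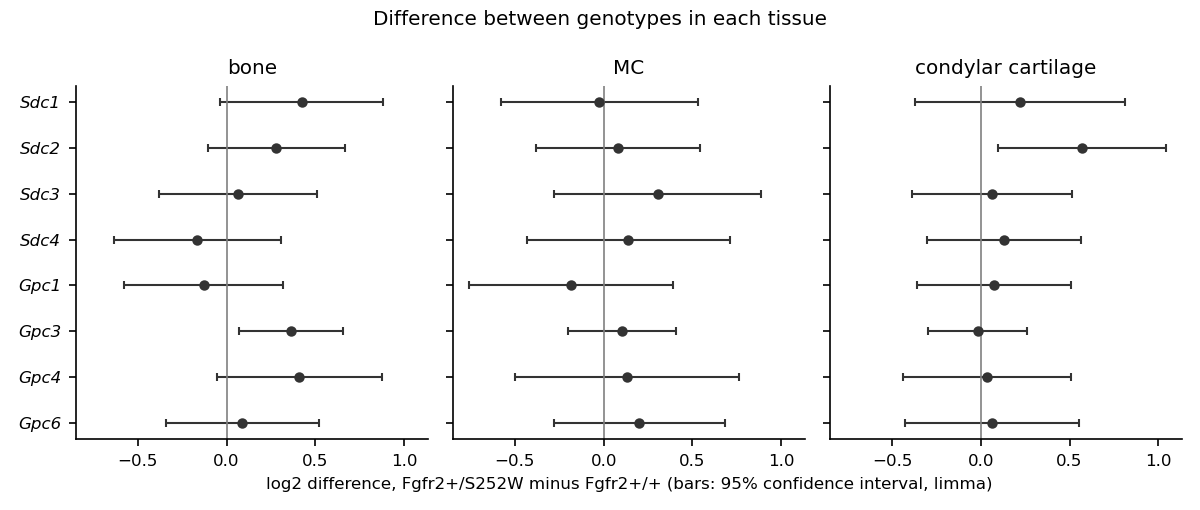
Log2 difference between Fgfr2+/S252W and Fgfr2+/+ embryos (horizontal axis, points with 95% confidence intervals from limma) for the 8 tested genes in each tissue. The intervals of 22 of the 24 differences include 0, the exceptions being Gpc3 in bone (0.36) and Sdc2 in condylar cartilage (0.57).

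The difference of the genotype effects between tissues was tested as an interaction. None of the 8 genes passed for bone against MC (0.0523% of all genes passed), bone against condylar cartilage (0%) or condylar cartilage against MC (0%), and 0 had an unadjusted p below 0.05 in limma, against 10.9%, 3.00% and 9.51% of all genes. edgeR and DESeq2 called 0 of the 8 as well, and at most 0.0436% and 0.837% of all genes. The fitted interactions lay between -0.30 and 0.49, the highest being that of Sdc2 in condylar cartilage against MC (SE 0.32, adjusted p = 0.651). Fgfr2 itself (7:130162451-133123350) had 43.1 and 41.8 FPKM in Fgfr2+/+ and Fgfr2+/S252W bone, 80.2 and 63.8 FPKM in MC, with 20.9 and 26.1 FPKM in condylar cartilage (means of 3), and did not pass between genotypes (adjusted p = 0.995, 0.553 and 0.998). Fgfr2+/+ MC replicate 1 had 108 FPKM, and without it the log2 difference between genotypes in MC was -0.021 (SE 0.23, adjusted p = 0.981). Of the 5209 exon bases of Fgfr2 as annotated by the authors, 314 are shared with Ctbp2, and fragments on them were not counted. Counts per gene do not tell the alleles apart, so they do not check the genotype labels.

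Genes around the proteoglycans were taken from 6 lists of 67 genes, of which 49 passed the filter. None passed between genotypes in any tissue. Of 7 genes of sulfate supply, which include those that make and carry the sulfate donor of the chains, 5 were higher and none lower in condylar cartilage than in MC, and 6 were higher in condylar cartilage than in bone, in each genotype. Of all genes tested, 45.0% and 42.6% passed in either direction for the first comparison and 37.4% and 31.9% for the second. Their median difference between condylar cartilage and MC was 2.36 in Fgfr2+/+ embryos, against 0.023 over all genes. Papss2, which makes the sulfate donor, and Slc26a2, a sulfate transporter, were picked as examples after their values were seen. Papss2 had mean levels of 16.6, 8.05 and 200 FPKM in bone, MC and the condyle of Fgfr2+/+ embryos (condylar against MC 4.74, SE 0.38, adjusted p = 8.98e-09). Slc26a2 had 7.29, 6.53 and 84.2 FPKM (3.67, SE 0.32, adjusted p = 2.47e-08). Chondroitin sulfate chains use the same supply, and the condylar libraries also held the most chondrocyte transcripts.

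**Figure D5:**
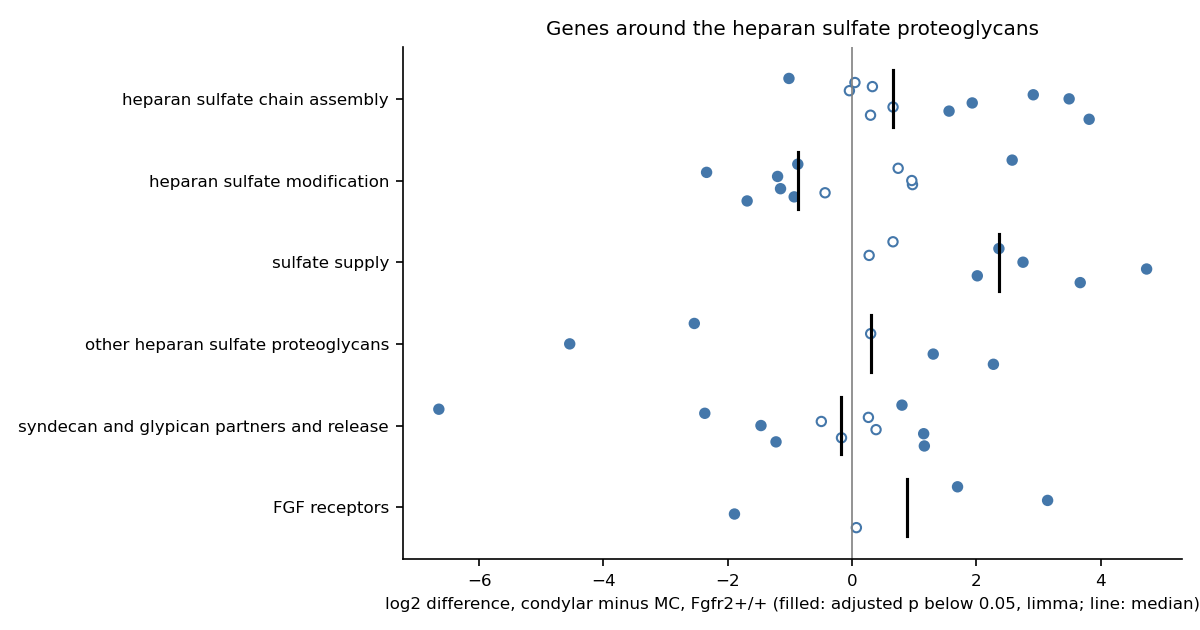
Log2 difference between condylar cartilage and MC in Fgfr2+/+ embryos (horizontal axis) for the 49 genes around the proteoglycans, by list. Filled points passed at an adjusted p below 0.05, and black lines are list medians, 2.36 for sulfate supply and -0.87 for heparan sulfate modification.

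Of 11 genes that assemble the chain, 5 were higher and 1 lower in condylar cartilage than in MC in each genotype, where 45.0% and 42.6% of all genes passed. Without Fgfr2+/+ MC replicate 1 the Fgfr2+/+ counts were 4 and 1. The 4 were Xylt1, B3gat3, Fam20b and Pxylp1, and the 1 lower gene was Extl3. The other genes, Ext1 and Ext2 among them, did not pass. Ext1, a subunit of the chain polymerase, was higher in bone than in MC by 0.64 (SE 0.21, adjusted p = 0.0273) in Fgfr2+/+ and 1.06 (SE 0.21, adjusted p = 0.000555) in Fgfr2+/S252W embryos. Without Fgfr2+/+ MC replicate 1 the first did not pass (0.35, SE 0.22, adjusted p = 0.211). Extl3, which starts the chain, was lower in bone, with -0.89 (SE 0.17, adjusted p = 0.000425) and -0.56 (SE 0.17, adjusted p = 0.0117). Of 11 genes of chain modification, 0 were higher and 5 lower in bone than in MC in Fgfr2+/+ embryos, and 0 and 4 in Fgfr2+/S252W embryos, where 34.0% and 38.3% of all genes passed. These included Sulf2, an enzyme that removes sulfate groups outside the cell, with 15.5 FPKM in bone and 29.4 FPKM in MC of Fgfr2+/+ embryos (-0.92, SE 0.17, adjusted p = 0.000536), and the sulfotransferases Hs3st3b1 (-2.04, adjusted p = 0.00398) and Hs3st3a1 (-1.54, adjusted p = 0.0345).

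Of 5 tested genes of other heparan sulfate proteoglycans, Tgfbr3 (betaglycan) was lower in bone than in MC (-1.58, SE 0.39, adjusted p = 0.00385 in Fgfr2+/+ embryos) and Cd44, the hyaluronan receptor, was higher (1.19, SE 0.38, adjusted p = 0.0210). Of 11 partners and enzymes of release, 3 were higher and 2 lower in bone than in MC in Fgfr2+/+ embryos, where 34.0% of all genes passed. Sdcbp (syntenin), which binds syndecan tails, was higher in bone by 1.45 (SE 0.23, adjusted p = 9.01e-05). Tiam1, an activator of Rac that binds syndecans, was lower (-2.57, SE 0.38, adjusted p = 4.90e-05), as was Mmp14, a membrane protease that can shed syndecans (-1.27, SE 0.17, adjusted p = 1.74e-05). Mmp9 was higher in bone by 2.19 (SE 0.35, adjusted p = 0.000109) and is one of the osteoclast markers whose sums are given above. Among 4 tested FGF receptors, Fgfrl1, which lacks the kinase domain, was lower in bone than in MC (-1.56, SE 0.43, adjusted p = 0.00865). Fgfr2 was lower in condylar cartilage than in MC by 1.89 (log2 difference -1.89, SE 0.24, adjusted p = 2.84e-06) in Fgfr2+/+ and by 1.28 (-1.28, SE 0.24, adjusted p = 0.000257) in Fgfr2+/S252W embryos, as Sdc1, Sdc2 and Gpc6 were. Without Fgfr2+/+ MC replicate 1 the first value was -1.59 (SE 0.24, adjusted p = 1.71e-05). The named bone against MC differences of Fgfr2+/+ embryos in these lists passed without that library too, with Ext1 as the exception, and Tgfbr3 was then -2.30, Mmp9 2.70, Tiam1 -2.95 and Fgfrl1 -2.23. Of the 7 genes of sulfate supply, 6 were then higher in condylar cartilage than in MC.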

How the data were processed

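RNA of 18 laser-captured samples was analyzed as 6 groups of 3, mapped from the labels. Per the labels and the study's methods, the authors amplified the RNA (NuGEN Ovation v2, Nextera XT), sequenced paired ends, used STAR on mm10, and obtained fragment counts over exons from featureCounts 1.5.0-p1, without strand, multiple mappings or fragments on several genes, using Ensembl release 75 on GRCm38 without transcripts of nonsense-mediated decay. The deposited values are counts without normalization. Replicates are separate embryos, and total depth was 8218548 to 15585778.

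The fit used limma 3.58.1 and edgeR 4.0.16 (R 4.3.3). Genes needed more than 1 FPKM in 50% or more of the libraries, followed by TMM factors, voom, 1 mean per group and eBayes (12 residual and 8.12 prior degrees of freedom). P-values were adjusted by the Benjamini-Hochberg method within each contrast. The steps were tested on simulated counts. Further fits used DESeq2 1.42.0, the quasi-likelihood test of edgeR, other filters and factors, quality weights, tissues alone, a replicate block and leaving out 1 library. Equal replicate numbers were not taken as pairs, since the labels name no embryo. The members, lists and tests were chosen with earlier results of these data known. Named were all members, Gpc5, Fgfr2, up to 4 genes per list with the largest difference between bone and MC that passed alike in both genotypes, and the 2 genes of most similar pattern. Other genes of the lists were named after their values were seen.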

Additional observations from a re-analysis of the deposited data

How the results depend on the processing

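The 0 members passing between genotypes, and in the interactions, stayed at 0 under every alternative and with each library left out. For bone against MC in Fgfr2+/+ embryos the count of 3 became 5 with filterByExpr, 6 with the tissues compared alone, 5 without mitochondrial genes and Gm42418, and 5 with a replicate block in the tissues alone, an alternative chosen after seeing the data, and it was 2 to 5 with 1 library left out. Each of these 4 higher counts includes Gpc2, which passes those filters through the MC libraries where it is high. For Fgfr2+/S252W embryos the count of 5 was 4 to 6 under the alternatives, 6 where Gpc2 was tested, and 3 to 5 with 1 library left out, 3 without MC replicate 2. The counts of 6 for bone against condylar cartilage became 5 to 7 in Fgfr2+/+ and stayed at 6 in Fgfr2+/S252W embryos, and the 8 for condylar cartilage against MC was 8 to 9 under the alternatives, 9 only where Gpc2 was tested, and 8 and 7 to 8 with 1 library left out. In Fgfr2+/S252W embryos the 8 included Gpc2 in place of Gpc3 with the tissues alone and with the block in the tissues alone. With the shared code of a genotype's tissues as a replicate block (deviations correlated between -0.089 and 0.11, 1 of 18 above 0.1) the tissue counts were 4, 6 and 8 in Fgfr2+/+ and 5, 6 and 8 in Fgfr2+/S252W embryos, and Gpc4 in bone against MC of Fgfr2+/+ embryos (0.67, adjusted p = 0.0283) was the only call it changed. A replicate block on equal numbers of the genotypes (deviations correlated between -0.17 and 0.31, 3 of 9 above 0.1) left the genotype counts at 0. Sdc2 in bone against MC of Fgfr2+/+ embryos did not pass with quality weights (0.62, adjusted p = 0.0635), nor Gpc1 of Fgfr2+/S252W embryos with RLE factors (0.64, adjusted p = 0.0507), nor Gpc3 in condylar cartilage against MC of Fgfr2+/S252W embryos with a block in the tissues alone (0.40, adjusted p = 0.119). Gpc4 in bone against condylar cartilage of Fgfr2+/+ embryos passed with quality weights (-0.47, adjusted p = 0.0382) and with the block in the tissues alone (-0.51, adjusted p = 0.0187). The cause of these changes was not tested. Over all genes, the 10 passing between genotypes in bone became 4 with edgeR, 18 with DESeq2, 21 with filterByExpr, 53 without a filter, 141 with bone alone, 589 with quality weights and 537 with a block in bone alone. In MC the 0 became 90 with edgeR, 423 with DESeq2 and 45 without a filter, and in condylar cartilage 3 with DESeq2, 2 with quality weights and 7 with a block in that tissue alone. The 6 in the interaction of bone and MC became 94 with DESeq2, 12 with filterByExpr, 16 without a filter and 10 with weights, and the 0 in the others became 5 and 96 with DESeq2 and 13 for bone and condylar cartilage with weights. Between tissues, the 3897, 4388 and 3656 genes for bone against MC in Fgfr2+/+ and Fgfr2+/S252W and against condylar cartilage in Fgfr2+/S252W embryos became 5916, 10102 and 5895 without a filter, and the last was 5594 with weights.

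The differences between genotypes or tissues given next changed sign under an alternative, and none of them passed as reported. Between genotypes in MC, Sdc1 was 0.0065 with edgeR, 0.013 with DESeq2 and 0.063 with weights, and Sdc4 was -0.023, -0.019 and -0.065. In condylar cartilage, Gpc3 was 0.023 without a filter and 0.020 with weights, Sdc3 -0.027 and Gpc4 -0.016 with weights. For bone against MC in Fgfr2+/S252W embryos, Sdc4 was -0.019 with DESeq2, -0.034 with RLE factors and -0.0070 with tissues alone, and Sdc1 was 0.13 without a filter. Gpc4 for bone against condylar cartilage was 0.017 with weights. With 1 library left out, the genotype differences that crossed 0 ran in bone for Gpc6 from -0.16 to 0.23, in MC for Gpc1 from -0.45 to 0.031, Gpc4 from -0.0030 to 0.27, Sdc1 from -0.14 to 0.12, Sdc2 from -0.052 to 0.21, Sdc4 from -0.24 to 0.46, and in condylar cartilage for Gpc1 from -0.15 to 0.30, Gpc3 from -0.11 to 0.065, Gpc4 from -0.20 to 0.26, Sdc3 from -0.21 to 0.24, Sdc4 from -0.025 to 0.28. For bone against MC the ranges were Gpc6 from -0.38 to 0.10, Sdc4 from -0.073 to 0.63 in Fgfr2+/+ and Sdc1 from -0.28 to 0.15, Sdc4 from -0.11 to 0.20 in Fgfr2+/S252W embryos, and for bone against condylar cartilage in Fgfr2+/S252W embryos Gpc4 from -0.25 to 0.10. Depth limits Gpc2 most, with 11 to 36 fragments outside MC.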
